A study of Mus musculus musculus x M. m. domesticus and Mus musculus domesticus and Mus musculus with 12 samples.

Results

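A set of 5 genes was followed across the testes of fertile and sterile male mice. These are *Ppp1r15b* (ENSMUSG00000046062_at), *Sirpa* (ENSMUSG00000037902_at), *Usp48* (ENSMUSG00000043411_at), *Mthfd1* (ENSMUSG00000021048_at) and *Nup155* (ENSMUSG00000022142_at), 5 of the 7000 genes with deposited values. The study listed 45 sterility-correlated genes whose direction goes against the change in cell types in sterile testis. The list holds 13 autosomal genes, of which 9 were classed as mitotic and as lowered in sterile males. The 5 genes are those 9 without the chromatin genes and the imprinted *Meg3*. They were selected on lower mean expression in sterile males than in each fertile genotype, with an unadjusted p under 0.05 against the fertile hybrid and against at least 1 within-species genotype on these same males. Differences between sterile and fertile males are therefore given as a description without a test. Only differences among the fertile genotypes, which the selection did not use but which share their males with it, were tested.

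Whole testis RNA was measured in 12 males aged 60 days, 3 from each of 4 crosses, with 1 Affymetrix array per male. All males were F1, and the maternal strain is written first. The *DxD* males came from LEWES/EiJ x WSB/EiJ within *M. domesticus* and the *MxM* males from PWK/PhJ x CZECHII/EiJ within *M. musculus*. The reciprocal hybrids were the fertile *DxM* (LEWES/EiJ x PWK/PhJ) and the sterile *MxD* (PWK/PhJ x LEWES/EiJ). Both hybrids carry 1 set of autosomes from each species, so the probes of an autosomal gene meet the same alleles in *DxM* and *MxD*, whereas the X, the Y and the mother differ. Each genotype is represented by 1 cross, and *DxD* and *MxM* are not the parents of the hybrids. The array was designed on a largely *M. domesticus* genome, so a lower value in *MxM* and a weaker match of the probes cannot be told apart. Values are on the log2 scale after quantile normalization. They were compared only within a gene. The *MxM* arrays varied most, with a mean within-genotype variance of 0.0879 against 0.0147 to 0.0278 in the other genotypes, and 131 genes were at least 1 log2 unit lower in *MxM* replicate 3 than in every other male.

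Spermatogonia are the mitotically dividing germ cells at the base of the seminiferous tubule. They give rise to spermatocytes, which pass through meiosis, and these to the haploid spermatids. A gene was classed as mitotic by the study when its induction was greatest in spermatogonia among purified testis cells, which does not mean that it is expressed there alone. The 5 genes have different functions. *Ppp1r15b* encodes the constitutive subunit that directs protein phosphatase 1 to the translation factor eIF2 alpha and so counteracts its phosphorylation. *Sirpa* encodes a membrane receptor of the immunoglobulin superfamily that binds CD47 and recruits tyrosine phosphatases, and it is well known from macrophages and neurons. *Usp48* encodes a ubiquitin-specific protease, which removes ubiquitin from proteins. *Mthfd1* encodes a cytosolic enzyme of folate metabolism that supplies one-carbon units for purine and thymidylate synthesis. *Nup155* encodes a scaffold protein of the inner ring of the nuclear pore. On NCBI build 37 (Ensembl version 52) they start at 135027960 on chromosome 1 (*Ppp1r15b*), 129418650 on chromosome 2 (*Sirpa*), 137149667 on chromosome 4 (*Usp48*), 77356395 on chromosome 12 (*Mthfd1*) and 8059350 on chromosome 15 (*Nup155*).

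In each of the 5 genes the sterile *MxD* males had the lowest mean of the 4 genotypes, as the selection requires. The differences from the fertile hybrid *DxM* were modest and similar in size, from -0.24 in *Mthfd1* to -0.40 in *Sirpa*, so that the *MxD* level on the linear scale was 84.7% and 75.9% of that in *DxM*. In *Ppp1r15b*, *Sirpa*, *Usp48* and *Nup155* every *MxD* male lay below all 9 fertile males. In *Mthfd1* the *MxD* and *MxM* males overlapped. Of all 7000 genes, 5.57% had every *MxD* male below all fertile males. Since the selection used these values, nothing is read from the 4 of 5. Testis RNA was taken from whole tissue, so fewer cells of a type and less RNA per cell cannot be told apart.

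**Figure D1:**
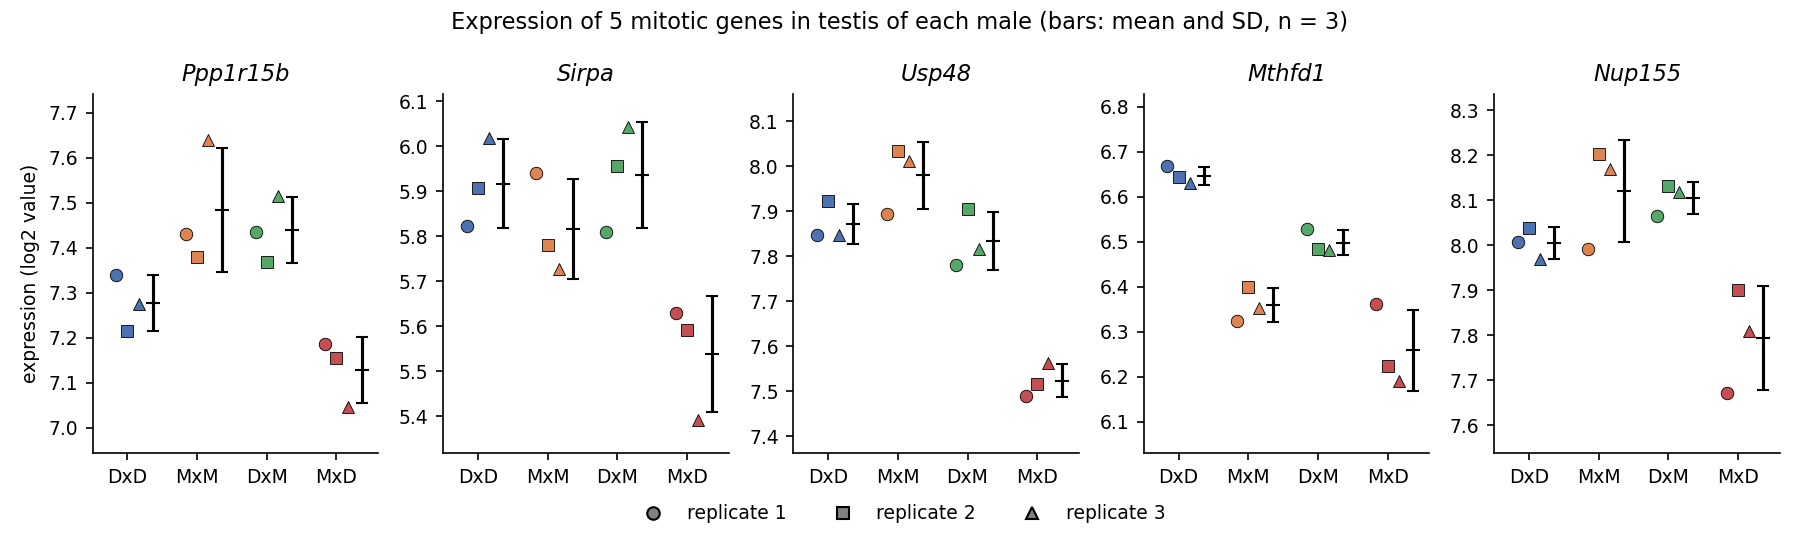
Log2 expression of the 5 genes in each of the 12 males (y axis) by genotype (x axis), with symbols for the replicate number and bars for mean and SD of 3 males; every panel spans 0.8 log2 units. The *MxD* males sit below all fertile males in every gene except *Mthfd1*, where *MxD* replicate 1 at 6.36 is above *MxM* replicates 1 and 3.

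*Usp48*, the deubiquitinase gene, had the widest separation. It measured 7.49, 7.52 and 7.56 in the *MxD* males. The *DxM* males measured 7.78, 7.91 and 7.82, the *DxD* males 7.85, 7.92 and 7.85, and the *MxM* males 7.90, 8.03 and 8.01. The lowest fertile male, *DxM* replicate 1, was 0.22 above the highest *MxD* male, a gap wider than the SD of 0.04 among the *MxD* males. The *MxD* mean was 7.52 ± 0.04 (SD, n = 3), and the fertile means were 7.83 ± 0.06 (*DxM*), 7.87 ± 0.04 (*DxD*) and 7.98 ± 0.07 (*MxM*). On the log2 scale *MxD* was -0.31 from *DxM*, -0.35 from *DxD* and -0.46 from *MxM*, with a standard error of 0.07 in the limma fit.

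*Sirpa*, the CD47 receptor gene, showed the largest difference between the reciprocal hybrids. The *MxD* males measured 5.63, 5.59 and 5.39, and the *DxM* males 5.81, 5.96 and 6.04. The *DxD* males measured 5.82, 5.91 and 6.02 and the *MxM* males 5.94, 5.78 and 5.73. The *DxD* and *DxM* males covered nearly the same range, and *MxM* replicates 2 and 3 lay below it. The lowest fertile male, *MxM* replicate 3, was 0.10 above the highest *MxD* male. *MxD* replicate 3 was the lowest of all males. The *MxD* mean of 5.54 ± 0.13 (SD, n = 3) compares with 5.94 ± 0.12 in *DxM*, 5.92 ± 0.10 in *DxD* and 5.82 ± 0.11 in *MxM*. *MxD* was thus -0.40 from *DxM*, -0.38 from *DxD* and -0.28 from *MxM* (standard error 0.09). *Sirpa* and *Mthfd1* are among the dimmest 1750 genes of the 7000 by mean value.

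*Nup155*, the nuclear pore gene, varied more among the *MxD* males than in *DxD* or *DxM*. The *MxD* males measured 7.67, 7.90 and 7.81. The *DxM* males measured 8.07, 8.13 and 8.12, the *DxD* males 8.01, 8.04 and 7.97, and the *MxM* males 7.99, 8.20 and 8.17. All *MxD* males were below the fertile males, but the gap between *MxD* replicate 2 and *DxD* replicate 3 was only 0.07. The mean was 7.79 ± 0.12 (SD, n = 3) for *MxD*, whereas *DxM* had 8.11 ± 0.04, *DxD* 8.00 ± 0.04 and *MxM* 8.12 ± 0.11. The *MxD* mean was -0.31 from *DxM*, -0.21 from *DxD* and -0.33 from *MxM* (standard error 0.08). Without *MxD* replicate 1 the difference from *DxD* was -0.15.

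*Ppp1r15b*, the eIF2 alpha phosphatase subunit gene, had the smallest separation among the 4 genes without overlap. It measured 7.19, 7.15 and 7.05 in the *MxD* males and 7.43, 7.37 and 7.52 in the *DxM* males. The *DxD* males were the next lowest at 7.34, 7.21 and 7.28, and the *MxM* males measured 7.43, 7.38 and 7.64. Only 0.03 separated *MxD* replicate 1 from *DxD* replicate 2, which is less than the SD of 0.07 among the *MxD* males. With a mean of 7.13 ± 0.07 (SD, n = 3) for *MxD* against 7.44 ± 0.07 for *DxM*, 7.28 ± 0.06 for *DxD* and 7.48 ± 0.14 for *MxM*, the difference of *MxD* was -0.31 from *DxM* and -0.35 from *MxM*. From *DxD* it was -0.15 (standard error 0.08) and the interval of the fit (95%) ran from -0.33 to 0.03.

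*Mthfd1*, the folate enzyme gene, differed most from *DxD* and least from *MxM*. The *MxD* males measured 6.36, 6.22 and 6.19 and the *MxM* males 6.32, 6.40 and 6.35, so that 2 of the 3 *MxD* males lay below all fertile males. The *DxM* males measured 6.53, 6.48 and 6.48, and the *DxD* males 6.67, 6.64 and 6.63. The *DxM* and *DxD* males each spanned less than the *MxD* males and overlapped neither each other nor *MxD*. The means were 6.26 ± 0.09 (SD, n = 3) in *MxD*, 6.36 ± 0.04 in *MxM*, 6.50 ± 0.03 in *DxM* and 6.65 ± 0.02 in *DxD*. *MxD* was -0.24 from *DxM*, -0.39 from *DxD* and -0.10 from *MxM* (standard error 0.06), and the interval of the last (95%) ran from -0.24 to 0.04. With all replicate 1 males left out, an alternative added after seeing the data, the difference from *MxM* was -0.17. It was -0.07 without *MxD* replicate 3 and -0.15 without *MxD* replicate 1.

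The threshold of the selection was computed here with unequal variances. An equal-variance version was not run for the contrasts with *MxD*, and calls close to the threshold could differ in it. In the version used, the threshold was reached in all 3 contrasts for *Sirpa* and *Usp48*. It was reached in 2 contrasts for *Ppp1r15b* and *Nup155*, with *DxM* and *MxM*, and in 2 for *Mthfd1*, with *DxM* and *DxD*. *Mthfd1* was the gene closest to the threshold from inside. The closest mitotic gene outside it, among those whose class is given here, was ENSMUSG00000046818. Its *MxD* mean was 6.97 ± 0.11 (SD, n = 3), with 7.22 ± 0.03 for *DxM*, 7.06 ± 0.09 for *DxD* and 7.26 ± 0.18 for *MxM*. It differed by -0.25 from *DxM*, by -0.09 from *DxD* and by -0.29 from *MxM*. With unequal variances it missed the threshold in each. It came closest against *DxM*, where an equal-variance version could decide otherwise.

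Among the fertile genotypes, 1 of the 5 genes, *Mthfd1*, passed the test in 1 of 3 contrasts. By limma with Benjamini-Hochberg adjustment over 7000 genes, 0 of the 5 differed between *DxM* and *DxD*, where 12.1% of all genes did, and 0 differed between *DxM* and *MxM*, where 16.9% of all genes did. In each of these contrasts 1 of the 5 had an unadjusted p under 0.05 by limma, *Mthfd1* in the first and *Usp48* in the second. By the methods' t-test with equal variances and the same adjustment 1 gene, *Mthfd1*, differed between *DxM* and *DxD* and 0 between *DxM* and *MxM*. That test with unequal variances called 0 in both. Between *DxD* and *MxM*, where 31.9% of all genes differed by limma, 1 of the 5 did. The median absolute difference of the 5 genes was 0.10, 0.12 and 0.12 in these 3 contrasts, against 0.13, 0.15 and 0.20 over all genes. With 5 genes these counts are close to the shares over all genes, and nothing particular to the 5 is read from them. Males with the same replicate number deviated together between *DxM* and *DxD*. The main fit left that number out. When it entered the limma fit as a block, the count over all genes in this contrast went from 844 to 1584, while among the 5 genes it was again 0. The limma adjusted p of *Mthfd1* in this contrast was 0.16 without the block and 0.079 with it.

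*Mthfd1* was 0.29 higher in *DxD* than in *MxM* (standard error 0.06, limma adjusted p = 0.0050), a difference larger in size than the -0.24 between *MxD* and *DxM*. Its *DxD* and *MxM* males did not overlap. With any 1 male left out the limma adjusted p lay between 0.0035 and 0.021, and the adjusted p under the other settings in which the gene was tested lay between 0.0024 and 0.033. The fertile hybrid lay between both species genotypes, at -0.0053 from their mean with an interval (95%) of -0.13 to 0.12. The sterile hybrid, with the same autosomes, was -0.24 from that mean.

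*Ppp1r15b* ordered the other way, with *DxD* -0.21 from *MxM* (standard error 0.08), and did not pass the adjusted threshold (limma adjusted p = 0.077). Without *MxM* replicate 3, its highest male, that difference was -0.13. The *DxM* mean was 0.16 above *DxD* (limma adjusted p = 0.25) and differed by -0.04 from *MxM*, where limma gave an adjusted p of 0.76. The fertile order was therefore *DxD*, *DxM*, *MxM*, and no neighbours in it differed by this test. *Nup155* had the same order. Its fertile means spanned 0.12, and the limma adjusted p-values were 0.49 between *DxM* and *DxD*, 0.91 between *DxM* and *MxM*, and 0.29 between *DxD* and *MxM*.

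*Usp48* ran from *DxM* over *DxD* to *MxM*. The largest of its fertile differences was -0.15 between *DxM* and *MxM* (standard error 0.07, limma adjusted p = 0.16), with an interval (95%) from -0.29 to -0.0022. That gene differed by -0.04 between *DxM* and *DxD* (limma adjusted p = 0.80) and by -0.11 between *DxD* and *MxM* (limma adjusted p = 0.24). *Sirpa* ran from *MxM* over *DxD* to *DxM* within 0.12. Its limma adjusted p-values were 0.94, 0.43 and 0.45 in the contrasts of *DxM* with *DxD*, *DxM* with *MxM* and *DxD* with *MxM*. The intervals (95%) of the *Sirpa* differences reached 0.33 on the log2 scale. For this gene the error thus allows fertile differences of the size described for the sterile males. Between *DxD* and *MxM* the interval (95%) reached -0.39 in *Ppp1r15b* and -0.29 in *Nup155*. In these genes too it allows differences as large as some of those described for the sterile males.

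**Figure D2:**
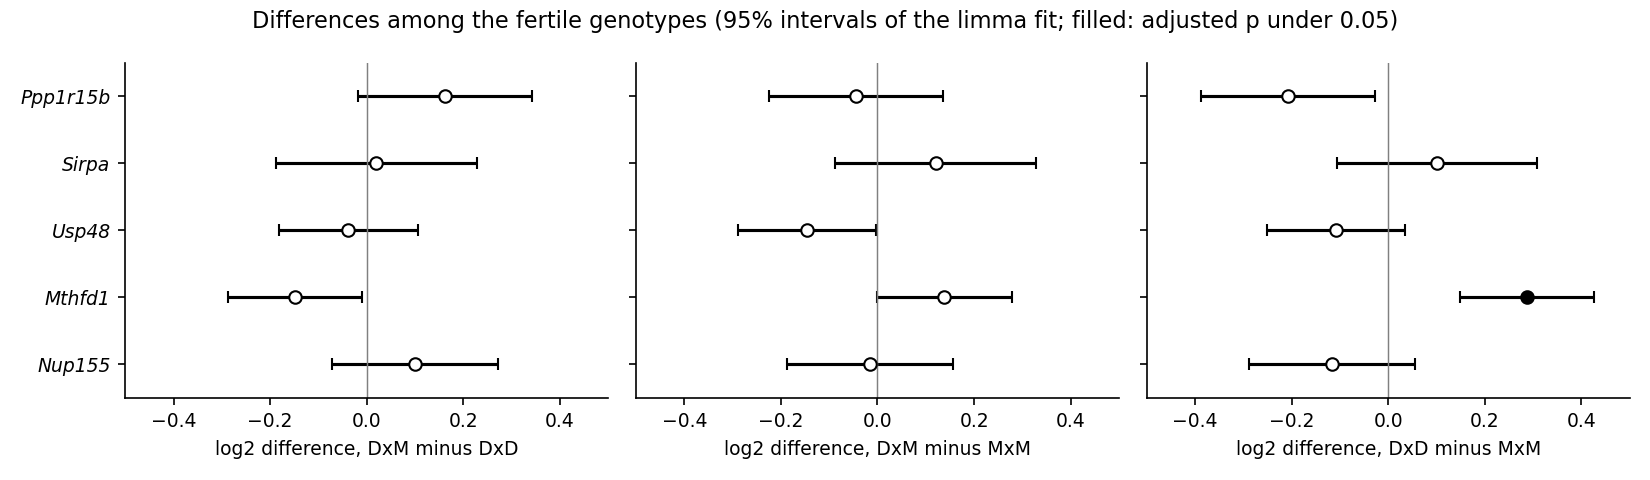
Differences between fertile genotypes on the log2 scale (x axis, 1 panel per contrast) for the 5 genes (y axis), with 95% intervals from the limma fit; filled points passed Benjamini-Hochberg adjustment over 7000 genes. The only filled point is *Mthfd1* between *DxD* and *MxM*, at 0.29.

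The fertile hybrid was set against the mean of both species genotypes. The difference of *DxM* from that mean was 0.06 in *Ppp1r15b*, 0.07 in *Sirpa*, -0.09 in *Usp48*, -0.0053 in *Mthfd1* and 0.04 in *Nup155*, and each interval (95%) included 0. For the sterile hybrid the same difference was -0.25, -0.33, -0.40, -0.24 and -0.27 in this order, which is a description because of the selection. The intervals (95%) of the fertile hybrid ran from -0.11 to 0.25 in *Sirpa* and from -0.22 to 0.03 in *Usp48*, so closeness to the mean is not shown. The *DxM* mean was above both species means in *Sirpa* and below both in *Usp48*.

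The 5 genes were set against the mitotic genes of the study, of which 367 have their class among the 1997 annotated genes used here, on chromosomes 1 to 5. *Ppp1r15b*, *Sirpa* and *Usp48* are among them. In 313 of these mitotic genes (85.3%) the *MxD* mean exceeded the *DxM* mean, against 49.9% of all 7000 genes, and their median difference was 0.16. The *MxD* mean was the lowest of the 4 genotypes in 19 of the 367 (5.18%), against 27.8% of all genes, and 4 of the 19 met the selection. These were *Ppp1r15b*, *Sirpa*, *Usp48* and the bromodomain gene *Baz2b*. Relative to the mitotic median, the differences between *MxD* and *DxM* were -0.47 in *Ppp1r15b*, *Usp48* and *Nup155*, -0.55 in *Sirpa* and -0.40 in *Mthfd1*. The selection used these differences, so nothing is read from their distance to the median.

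Of the 364 other mitotic genes, 1 was lower in *MxD* relative to *DxM* than *Sirpa*, *Ppp1r15b*, *Usp48* and *Nup155*, and 5 were lower than *Mthfd1*. The 1 gene, ENSMUSG00000026414, was named after its value was seen. It differed by -1.05 between *MxD* and *DxM* but was 0.94 higher in *MxD* than in *DxD*, so it did not have its lowest mean in the sterile males. In the contrast with *DxD*, 5 other mitotic genes were lower than *Sirpa*, *Usp48* or *Mthfd1*, 11 were lower than *Nup155* and 14 were lower than *Ppp1r15b*. In the contrast with *MxM*, 4 were lower than *Usp48*, 5 were lower than *Ppp1r15b* or *Nup155*, 10 were lower than *Sirpa* and 53 were lower than *Mthfd1*. The selection on low values in *MxD* favours low ranks in these contrasts, so nothing is read from the ranks.

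**Figure D3:**
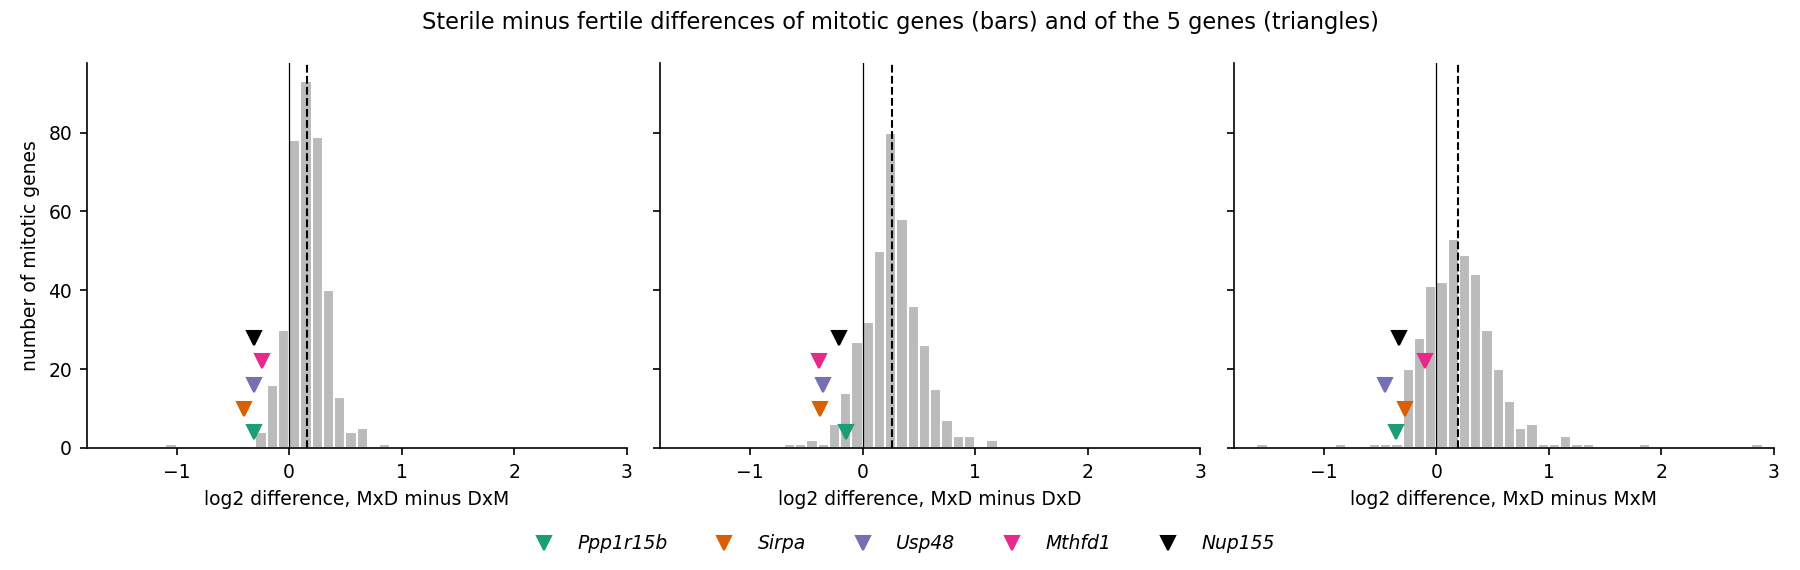
Distribution of the log2 difference between *MxD* and each fertile genotype (x axis, 1 panel per contrast) over 364 other mitotic genes (bars, number of genes on the y axis), with the median of the mitotic genes as a dashed line and the 5 genes as triangles whose height has no meaning. The bars centre above 0, with a median of 0.16 against *DxM*, and the 5 genes lie at -0.24 or lower in that panel. The 5 genes were selected on low values in *MxD*, so their place is a description.

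The other 4 listed mitotic genes were selected in the same way. The chromatin genes *Dnmt3a*, *Brwd1* and *Baz2b* differed between *MxD* and *DxM* by -0.21, -0.27 and -0.19, and *Meg3* by -0.38. *Dnmt3a* and *Baz2b* were thus closer to *DxM* than any of the 5 genes. Against *DxD* the 4 genes differed by -0.26 to -0.48, where the 5 genes differed by -0.15 to -0.39, and *Brwd1* (-0.48) and *Meg3* (-0.44) were further below *DxD* than any of the 5. Against *MxM* they differed by -0.15 to -0.30, where the 5 genes differed by -0.10 to -0.46.

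Male by male, the mitotic and postmeiotic classes deviated in opposite directions in *MxD*. The mean deviation from the median of the 12 males, taken over 364 mitotic genes, came to 0.15 ± 0.06 (SD, n = 3) in *MxD*. The fertile genotypes had -0.0072 ± 0.02 (*DxM*), -0.11 ± 0.03 (*DxD*) and -0.06 ± 0.06 (*MxM*). Over 269 postmeiotic genes it was -0.19 ± 0.06 in *MxD* and between 0.02 and 0.05 in the fertile genotypes. The mean over the 5 genes was -0.25 ± 0.04 in *MxD* and between 0.05 and 0.07 in the fertile genotypes. The sign for the 5 genes in *MxD* follows from the selection. Over 142 somatic genes the *MxD* males had 0.06 to 0.08 and the fertile males -0.09 to 0.10, with *MxM* replicate 3 above every *MxD* male. Over 324 meiotic genes the *MxD* males had -0.09 to -0.04 and the fertile males -0.08 to 0.06, so neither class separated *MxD* from all fertile males. *MxD* replicate 3 was at the extreme for the mitotic class, the postmeiotic class and the 5 genes, with 0.22, -0.24 and -0.30 in this order. The part of these class shifts in the values of the 5 genes was not tested. Of the named Leydig cell genes only *Cyp17a1*, a steroidogenic enzyme gene, could be identified, at 11.17 to 11.29 in *MxD* and 9.54 to 10.69 in the fertile males. It could be identified because it is on the study's list of 45 genes. That list was selected on these same males, so nothing is read from the separation of *Cyp17a1*.

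**Figure D4:**
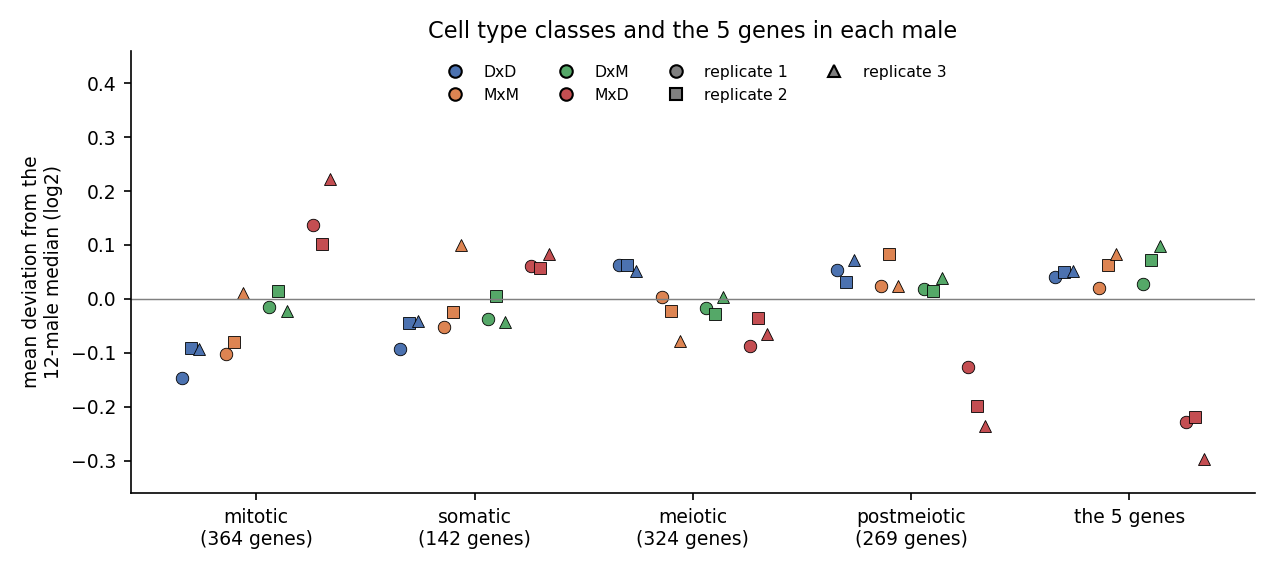
Mean deviation of each male from the median of the 12 males on the log2 scale (y axis) for 4 cell type classes of the study and for the 5 genes (x axis), coloured by genotype with symbols for the replicate number. In *MxD* the mitotic class is at 0.10 or higher in every male, while the postmeiotic class and the 5 genes are at -0.13 or lower.

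The *MxD* male with the lowest value was not the same for all 5 genes. *Ppp1r15b*, *Sirpa* and *Mthfd1* were lowest in *MxD* replicate 3, and *Usp48* and *Nup155* were lowest in *MxD* replicate 1. Without *MxD* replicate 3 the difference from *DxM* was -0.27 in *Ppp1r15b*, -0.33 in *Sirpa* and -0.21 in *Mthfd1*. *Usp48* and *Nup155* were also both lowest in replicate 1 of *MxM* and of *DxM*. Within genotypes the deviations of *Usp48* and *Nup155* from their genotype means correlated over the 12 males with r = 0.71, while r lay between -0.36 and 0.22 in the other 9 pairs among the 5 genes. The replicate 1 males, which deviated together across genotypes over all genes, enter these values. Over the 8 males without replicate 1, r was 0.20 for *Usp48* and *Nup155* and 0.77 for *Mthfd1* and *Nup155* (from -0.32 over 12 males). It was -0.75 for *Sirpa* and *Usp48* (from -0.36) and -0.69 for *Ppp1r15b* and *Usp48* (from -0.30). With replicate 1 left out, the deviations within a genotype mirror each other. Each of these r rests on 1 independent value per genotype, and nothing is read from its size.

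The genes whose pattern over the 12 males was most like that of each of the 5 were sought among all other genes by Pearson's r, as a description over 4 genotypes of 3 males. For *Ppp1r15b* this was ENSMUSG00000047308 with r = 0.98, and for *Mthfd1* ENSMUSG00000038298 on chromosome 3, a postmeiotic gene, with r = 0.98. The highest r was 0.95 for *Usp48*, 0.93 for *Sirpa* and 0.92 for *Nup155*. The low *MxD* values on which the 5 genes were selected enter each r, so genes low in *MxD* rank high by construction and nothing is read from their classes. The files do not pair the other identifiers with names.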

How the data were processed

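RNA from 12 testes was hybridised to Affymetrix mouse expression arrays. The deposited log2 expression values were used without change. To make them, the authors combined the probes of each Ensembl gene by PLIER, which weights probes by their performance, with gene definitions from BRAINARRAY. Genes not detected in every male were dropped and quantile normalization followed. Every array holds the same set of values, whose median is 8.14. The number of arrays limits the precision. Genotypes and replicate numbers came from the labels, which do not say whether the 3 males of a genotype were littermates. Names, positions and cell type classes came from the study's annotation.

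Contrasts among fertile genotypes were fitted in R 4.3.3 with limma 3.58.1 (1 coefficient per genotype, spread shared over 4 genotypes, two-sided, Benjamini-Hochberg over 7000 genes at 0.05). The procedure was tested on simulated data. The methods' t-test, fits of 2 genotypes, a replicate block, a robust prior with a trend, leaving out the dimmest 1750 genes, arrays centred on the autosomal median, an unadjusted threshold, a linear scale and leaving out each male were alternatives. All replicate 1 males were left out as an addition after seeing the data. The deviation of each male from its genotype mean correlated across genes between males of the same number. The r ran from 0.16 to 0.75 between *DxM* and *DxD* and from 0.15 to 0.76 between *MxD* and the fertile genotypes. The numbers may thus pair these males. In each of these contrasts r was highest for replicate 1. Of 6 males, 6 correlated best with their own number between *MxD* and *DxM*. It was 4 for *MxD* with *MxM* and for *DxM* with *DxD*, and 3 for *MxD* with *DxD*. A pairing is seen in these values alone. The main fit did not include the numbers, so its standard errors, intervals and p-values take no account of a pairing. The replicate block was run only as an alternative.

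The 5 genes and all lists were chosen with earlier results of these data known. Genes named were the 5, the other listed mitotic genes, the nearest genes to the threshold and the most alike genes. Lists of pathway partners and cell type markers held 252 symbols, of which 1, *Cyp17a1*, has a name in the sources used here, so partner and marker counts, gene sequences and promoter motifs are not reported here, and the study's cell type classes stood in for the marker lists. Plots used Python 3.11.15 and matplotlib 3.10.9.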

Additional observations from a re-analysis of the deposited data

How the results depend on the processing

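The 15 differences between *MxD* and a fertile genotype kept their sign with arrays centred on the autosomal median, without the replicate 1 males and without each male of the genotypes compared. Of these 120 recomputed values 119 moved by less than 1 SD. The exception was *Mthfd1* against *MxM*, at -0.17 without the replicate 1 males. The block and leaving out males of other genotypes cannot change these differences, and the linear scale was not run for them.

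Between *DxM* and *DxD*, *Mthfd1* alone (1 of 5) passed with the methods' t-test with equal variances and with an unadjusted threshold. Between *DxM* and *MxM*, 1 of 5 passed with the unadjusted threshold. Between *DxD* and *MxM*, 2 of 5 passed with the replicate block, where *Ppp1r15b* had a limma adjusted p of 0.047, 2 passed with the unadjusted threshold, and 0 passed without the dimmest 1750 genes, which include *Mthfd1*. The main fit left the replicate numbers out in every contrast. Same-numbered males correlated with r down to 0.07 between *DxD* and *MxM*, where 4 of 6 males correlated best with their own number. Between *DxM* and *MxM* r went down to -0.05, and 3 of 6 did. The same shares of males occurred in some of the other contrasts, so they do not separate the contrasts. The block changed no other call among the 5.

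Small fertile differences changed sign. *Sirpa* between *DxM* and *DxD* was -0.0026 with arrays centred on the autosomal median and ran from -0.033 to 0.083 with each male left out. Between *DxM* and *MxM*, *Ppp1r15b* ran from -0.096 to 0.034 and *Nup155* from -0.081 to 0.025 with each male left out. *Usp48* between *DxM* and *DxD* kept its sign, but ran from -0.074 to -0.012. None of these differences passed the threshold under any of these settings.

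Over all genes, the count between *DxM* and *DxD* was 844, and it was 170 with the methods' unequal-variance t-test, 1584 with the replicate block, 1785 unadjusted, 520 without the replicate 1 males and 448 to 1110 with each male left out. Between *DxM* and *MxM* it was 1181, and it was 4 and 179 with the methods' t-test with unequal and equal variances, 533 with only these 2 genotypes fitted, 1918 with the block, 2068 unadjusted and 724 to 1397 with each male left out. Between *DxD* and *MxM* it was 2230, and 468 and 1377 with the methods' t-test. The number of mitotic genes higher in *MxD* than in *DxM* ran from 296 to 313 with each male left out.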
